A study of Mus musculus with 6 samples.

Results

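The Frizzled receptor family was followed through its 10 mouse genes, Fzd1 to Fzd10, in embryonic mouse tissue that the labels call retinal pigmented epithelium (RPE), taken at embryonic day 13.5. The members were chosen by name: a probe set was taken where the platform annotation assigns it to exactly 1 of the 10 genes. This gave 26 probe sets, and the 10 genes stand among 18193 genes that the annotation names in this way. To represent a gene, the probe set reading highest on average over the 6 arrays was used. All 10 representatives had a mean log2 expression of at least 5, the level below which a probe set was not tested, and 8 of the other 16 probe sets fell below it.

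The series compared 3 albino pools with 3 pigmented pools, the latter labelled as controls. A pool held tissue of 3 to 4 littermates, and 1 array was run for each pool. Which gene is mutated, and in which strain, is not stated in the labels, so it is not known here whether the genotypes differ at 1 locus. The tissue was dissected by taking the lens, the cornea, the neural retina and extraocular tissue off the eyecup, while the sample descriptions speak of the whole eye region.

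Frizzled proteins are receptors that span the membrane several times and bind secreted Wnt proteins through a cysteine-rich domain outside the cell. With a co-receptor, LRP5 or LRP6, they pass the signal to Dishevelled and stabilise beta-catenin, and some members also act with the planar cell polarity proteins that align epithelial cells. In the embryonic eye, Wnt signalling through beta-catenin is known for its part in keeping the outer layer of the optic cup as RPE, and Fzd5 is known for its role in the optic vesicle and retina.

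Markers of several tissues were read on these arrays. Of 12 RPE markers 11 had a mean of at least 5, among them Tyr, the tyrosinase gene (10.98), and Otx2 (9.84), while Rpe65, a gene of the mature RPE, read 3.23. Markers of periocular mesenchyme averaged 11.17 to 11.36 by array. Skeletal muscle markers had array means of 8.65 to 9.34 in albino and 7.12 to 8.06 in pigmented pools. All 14 muscle markers, Myog (a difference of 1.71) among them, were read higher on every albino array than on any pigmented array, and none had a mean below 5. Macrophage markers had array means of 7.16 to 7.24 in albino and 7.01 to 7.08 in pigmented pools. The other 8 of the 10 marker lists overlapped between the genotypes. RPE markers came close to standing apart, with array means of 9.09 to 9.28 in albino and 9.27 to 9.48 in pigmented pools. Of the 12, 1 was read higher in albino pools and 4 did not overlap on the lower side, Ttr (-0.56), the transthyretin gene, among them. For neural retina markers the albino arrays averaged 6.28, 6.86 and 7.06, against 6.52, 7.01 and 7.36 for the pigmented ones. Albino replicate 3 stood apart in lens markers, with a mean of 5.25 against 6.57 to 6.87 on the other arrays, and Cryba1, a lens crystallin gene, read 3.31 there against 7.88 to 8.53. Y-linked means were 7.06 to 7.99 in albino pools and 7.39, 2.32 and 5.98 in pigmented pools, and the sex of the pooled embryos is not stated in the labels. In pooled tissue, fewer cells of a type and less RNA per cell cannot be told apart.

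The readings of the Frizzled genes spanned a wide range. Fzd1 stood highest with a mean log2 value of 10.64 over the 6 arrays, followed by Fzd2 (10.36) and Fzd7 (9.65), 3 closely related receptors. Fzd3 (8.89) and Fzd6 (8.78), the members best known from planar cell polarity, came next. Below them were Fzd4 (7.63), the receptor of the secreted protein Norrin, and Fzd8 (7.22). Fzd10 (6.51), Fzd5 (6.18) and Fzd9 (5.64) read lowest. Probe sets differ in how strongly they bind, so this is an order of readings and not of transcript amounts.

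Of the 9 pairs of neighbours in that order, 6 did not overlap in any array. The 3 pairs that overlapped were Fzd3 with Fzd6, Fzd10 with Fzd5, and Fzd5 with Fzd9, each in order on 5 of 6 arrays. The gap between Fzd3 and Fzd6 was 0.10 ± 0.08 (SD over 6 arrays), and those between Fzd10 and Fzd5 and between Fzd5 and Fzd9 were 0.33 ± 0.36 and 0.54 ± 0.35 (SD over 6 arrays). These neighbours therefore differ by amounts close to their spread.

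**Figure D1:**
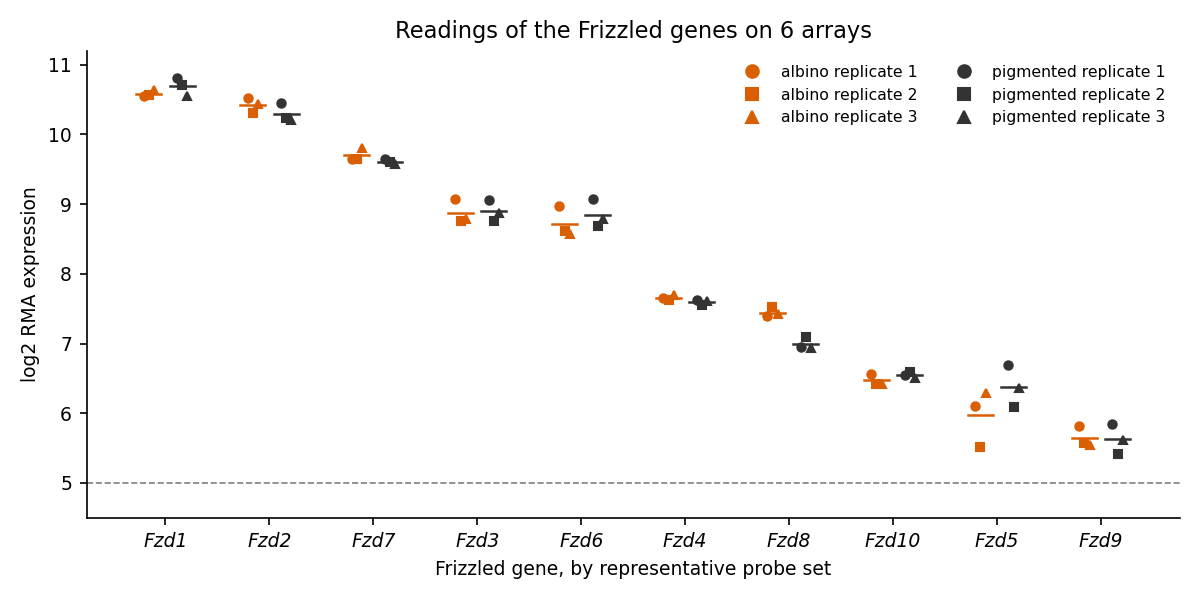
Log2 RMA expression of the representative probe set of each Frizzled gene on 6 arrays, ordered by mean; points are arrays, short lines the mean of 3 arrays of a genotype, and the dashed line the filter at 5. Fzd1 stands highest (10.64) and Fzd9 lowest (5.64), and the albino and pigmented points are apart only for Fzd8.

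Promoter windows were available in the RefSeq table (assembly GRCm38.p6) for 6 of the 10 genes, Fzd1, Fzd4, Fzd5, Fzd7, Fzd9 and Fzd10. A window covers 250 bases before and 50 after the gene's start. Both windows printed here were chosen after values and letters were seen, because Fzd1 had the highest reading, Fzd5 had the difference furthest below 0, and their windows lie at opposite ends in GC boxes. The Fzd1 window lies at chr5:4758167-4758466 and the Fzd5 window at chr1:64737701-64738000, both on the minus strand, and both are written 5′ to 3′ along the gene. Capitals mark matches to the GC box (GGGCGG or CCGCCC on the other strand), the TATA box (TATAAA or TTTATA) and the TCF/LEF core (CTTTGA or TCAAAG).
Fzd1: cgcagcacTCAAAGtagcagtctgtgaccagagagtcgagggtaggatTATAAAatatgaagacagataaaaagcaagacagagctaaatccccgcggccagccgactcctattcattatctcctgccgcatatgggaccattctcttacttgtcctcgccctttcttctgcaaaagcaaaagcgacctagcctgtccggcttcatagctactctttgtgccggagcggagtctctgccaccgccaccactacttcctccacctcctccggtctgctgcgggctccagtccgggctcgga
Fzd5: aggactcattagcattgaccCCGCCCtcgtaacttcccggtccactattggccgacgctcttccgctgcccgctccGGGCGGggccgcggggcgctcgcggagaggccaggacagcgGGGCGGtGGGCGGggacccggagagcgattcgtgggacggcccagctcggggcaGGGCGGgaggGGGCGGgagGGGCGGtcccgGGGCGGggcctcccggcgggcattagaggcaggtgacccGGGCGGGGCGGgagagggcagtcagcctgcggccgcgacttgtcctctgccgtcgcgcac

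The Fzd5 window held 10 GC boxes, of which 1 pair overlaps, and its GC content was 75.7%. The Fzd1 window held none, with a GC content of 54%, and had 1 TATA box and 1 TCF/LEF core match, which begin 202 and 242 bases before the start, respectively. The Fzd4 and Fzd7 windows held 8 and 7 GC boxes, and those of Fzd9 and Fzd10 held 1 each. Over all 32851 windows of the table, 35.7% held a GC box, 13.6% a TATA box and 16% a TCF/LEF core, and the median GC content was 52.7%. At least as many GC boxes as in the Fzd5 window were found in 0.0517% of windows. A match is a description of these letters and was not tested as a site, and no array value bears on how these windows act.

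No Frizzled gene differed between albino and pigmented pools past an adjusted p of 0.05 (limma, adjusted over all tested probe sets). The same fit called 0% of the 23591 tested probe sets, or 0 probe sets, against 4.68% at an unadjusted p under 0.05 (3.22% higher and 1.46% lower in albino pools). Of the probe sets at that unadjusted level 68.8% were higher in albino pools, and this share was 51.8% after cyclic loess and 31.5% after each array was centred on the median of the tested probe sets. Of the 10 genes 5 were read higher and 5 lower in albino pools, where 64.4% of all tested probe sets were higher, with a median difference of 0.00 beside 0.05 over all tested probe sets. The differences of the representatives ran from -0.41 (Fzd5) to 0.45 (Fzd8). The 95% confidence intervals of all 10 lay within 1 log2 unit of 0, and those of 7 within 0.5. At an unadjusted p under 0.05 stood 1 member, Fzd8. With the replicate number as a block there were 2, Fzd8 and Fzd5, where 18% of all tested probe sets stood at that level, and again none passed after adjustment (limma, smallest adjusted p = 0.192).

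**Figure D2:**
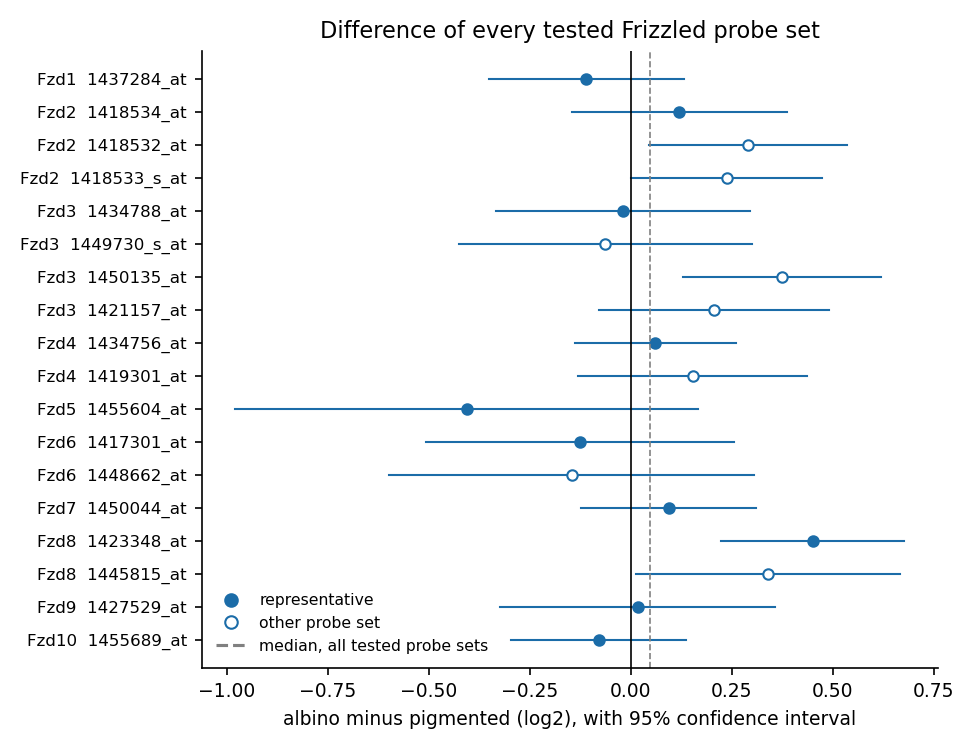
Albino minus pigmented log2 difference of the 18 tested Frizzled probe sets with 95% confidence intervals from limma; filled points are the representatives and the dashed line is the median of all tested probe sets (0.05). The Fzd8 and Fzd2 probe sets all lie right of 0, while those of Fzd3 lie on both sides.

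Fzd8, the closest relative of Fzd5, was read higher on every albino array than on any pigmented array. Its values were 7.39, 7.52 and 7.42 in albino pools against 6.95, 7.10 and 6.93 in pigmented pools. The means were 7.44 ± 0.07 and 6.99 ± 0.09 (SD, n = 3 each), a difference of 0.45 (SE 0.09, 95% confidence interval 0.22 to 0.68), or 1.37-fold with an interval of 1.17 to 1.60. It did not pass the threshold (limma adjusted p = 0.597, unadjusted p = 0.0025). Arrays of the same number differed by 0.44, 0.42 and 0.49, though the labels do not state that such arrays are pairs.

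The second Fzd8 probe set read lower in level and differed in the same direction. It gave 6.42, 6.13 and 6.07 in albino pools against 6.02, 5.70 and 5.88 in pigmented pools. Its difference was 0.34 (SE 0.14), again with no overlap of the genotypes. By number, its arrays differed by 0.40, 0.43 and 0.19. In these albino pools the skeletal muscle list also stood 1.57 higher on average. The muscle mean was lowest in albino replicate 3 (8.65) and in pigmented replicate 2 (7.12). On these arrays the second Fzd8 probe set had the lowest value of each genotype (6.07 and 5.70), while the representative had the middle albino value (7.42) and the highest pigmented value (7.10). The part of muscle tissue in the Fzd8 difference was not tested. Without albino replicate 3, the array low in lens markers, the representative differed by 0.46.

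Fzd5 lay on the opposite side. Its representative read 6.11, 5.52 and 6.29 in albino pools against 6.69, 6.09 and 6.36 in pigmented pools, and the genotypes overlapped. The means were 5.97 ± 0.40 and 6.38 ± 0.30 (SD, n = 3 each), the widest spread among the 10 representatives. The difference of -0.41 (SE 0.24, 95% confidence interval -0.98 to 0.17) did not pass (limma adjusted p = 0.999). Arrays of the same number gave -0.58, -0.57 and -0.07. With 1 array left out, the difference ran from -0.565 (without albino replicate 3) to -0.18 (without albino replicate 2). It was -0.25 without pigmented replicate 1. It was -0.70 when the Y-linked mean entered as a covariate. The other Fzd5 probe set had a mean below 5 and gave 0.02.

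Neural retina markers were also read lower in albino pools. Of the 9 named members of that list 1 was higher, and the list differed by -0.23 on average. Only 7 of the 9 had a mean of at least 5, and the count and the average include the others. The higher gene, Nefl (0.60), was also the only member whose genotypes did not overlap. Six6 and Sox2, transcription factor genes of the retina named after their values were seen, gave -0.93, -0.44 and -0.18 and -0.86, -0.56 and -0.19 between arrays of the same number. For these 2 genes, as for Fzd5, the difference was smallest between the arrays numbered 3. Other members ran differently. Atoh7 gave -0.25, -0.54 and -0.71, largest between the arrays numbered 3, and Rax gave -0.32, -0.18 and -0.28. The list means also differed most between the arrays numbered 3 (7.06 in albino against 7.36 in pigmented pools). All these differences by number depend on a pairing that the labels do not state. Over all tested probe sets, deviations of albino replicate 3 correlated more with pigmented replicate 2 (0.546) than with pigmented replicate 3 (0.448). Those of albino replicate 2 correlated about equally with pigmented replicates 2 (0.687) and 3 (0.693). The likeness of Six6 and Sox2 to Fzd5 by number is therefore not established. The part of neural retina in the Fzd5 difference was not tested.

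The closely related receptors Fzd1, Fzd2 and Fzd7 carried the highest readings of the family and small differences. Fzd1 read 10.55, 10.56 and 10.63 in albino pools against 10.81, 10.71 and 10.55 in pigmented pools, and pigmented replicate 3 lay at the lowest albino value. Its difference was -0.11 (SE 0.10). Fzd7 read 9.65, 9.65 and 9.80 in albino pools against 9.65, 9.60 and 9.57 in pigmented pools, a difference of 0.09 (SE 0.09). Each has a second probe set below 5, with differences of 0.08 for Fzd1, opposite in sign to its representative, and 0.09 for Fzd7.

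Fzd2 has 3 tested probe sets, of which only the representative overlapped between the genotypes. It read 10.52, 10.30 and 10.43 in albino pools against 10.45, 10.23 and 10.21 in pigmented pools, with overlap and a difference of 0.12 (SE 0.11). The next probe set read 9.63, 9.66 and 9.51 against 9.17, 9.39 and 9.37, a difference of 0.29 (SE 0.10) with no overlap. Another, whose name ends in _s_at, a suffix for probe sets that may match more than 1 transcript, differed by 0.24 (SE 0.10), also with no overlap. All 3 were higher in albino pools and none passed the threshold (limma adjusted p = 0.997 to 0.999).

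Fzd3, a receptor known from axon guidance, and Fzd6, known from the patterning of hair, differed little by their representatives. Fzd3 read 9.08, 8.76 and 8.79 in albino pools against 9.06, 8.76 and 8.87 in pigmented pools, a difference of -0.02 (SE 0.13). Fzd6 read 8.98, 8.61 and 8.57 in albino pools against 9.08, 8.68 and 8.78 in pigmented pools, a difference of -0.13 (SE 0.16). For both genes the replicate 1 array read highest in each genotype. Replicate 1 of Fzd6 stood 0.39 above the mean of the other albino arrays and 0.35 above that of the other pigmented arrays, more than the genotypes differed.

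The 4 tested probe sets of Fzd3 did not go one way. The one that stood apart read 6.02, 5.88 and 6.16 in albino pools against 5.63, 5.68 and 5.63 in pigmented pools, with no overlap and a difference of 0.37 (SE 0.10). It did not pass (limma adjusted p = 0.854). The 2 others tested gave 0.21 and -0.06. Fzd3 probe sets below 5, which were not tested, gave -0.34 and -0.14. The second tested Fzd6 probe set differed by -0.15 (SE 0.19), in the direction of its representative. Another Fzd6 probe set, at a mean of 4.36, was not tested and gave -0.05.

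Fzd4, Fzd9 and Fzd10 form the remaining branch of the family, and their readings were close between the genotypes. Fzd4, which in the eye is best known from the growth of retinal vessels, read 7.66, 7.62 and 7.69 in albino pools against 7.63, 7.55 and 7.61 in pigmented pools. Its difference of 0.06 (SE 0.08) turned to -0.01 when arrays were centred on the median of the tested probe sets, and its second tested probe set gave 0.15 (SE 0.12). A further Fzd4 probe set, at a mean of 3.18, was not tested and gave -0.01. Fzd10 read 6.57, 6.42 and 6.42 against 6.55, 6.59 and 6.51, a difference of -0.08 (SE 0.09). Its other probe set, at a mean of 2.86, was not tested and gave -0.31. Fzd10os, a noncoding gene next to Fzd10 in the RefSeq table, differed by -0.09 (SE 0.12).

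Fzd9 read 5.82, 5.57 and 5.55 in albino pools against 5.85, 5.42 and 5.62 in pigmented pools, the lowest readings of the family. Its difference of 0.02 (SE 0.14) was the smallest of the 10 in size, and it became -0.06 after the same centring. Replicate 1 again read highest in both genotypes.

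Taken by probe set, 5 of the 18 tested Frizzled probe sets (27.8%) did not overlap between the genotypes, all higher in albino pools. They belong to 3 genes, Fzd8 (2), Fzd2 (2) and Fzd3 (1), and probe sets of 1 gene are not independent of each other. Of the representatives, 1 of 10 (10%) did not overlap. Over all tested probe sets 10.8% did not overlap, 7.39% higher and 3.44% lower in albino pools, so the share of the representatives was near the background. For 6 of the 10 representatives, replicate 1 read above the mean of the other arrays in both genotypes (60.3% of all tested probe sets). It read below that mean in both only for the Fzd8 representative (23.4% of all tested probe sets). In the second Fzd8 probe set it read above, by 0.32 in albino and 0.23 in pigmented pools.

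**Figure D3:**
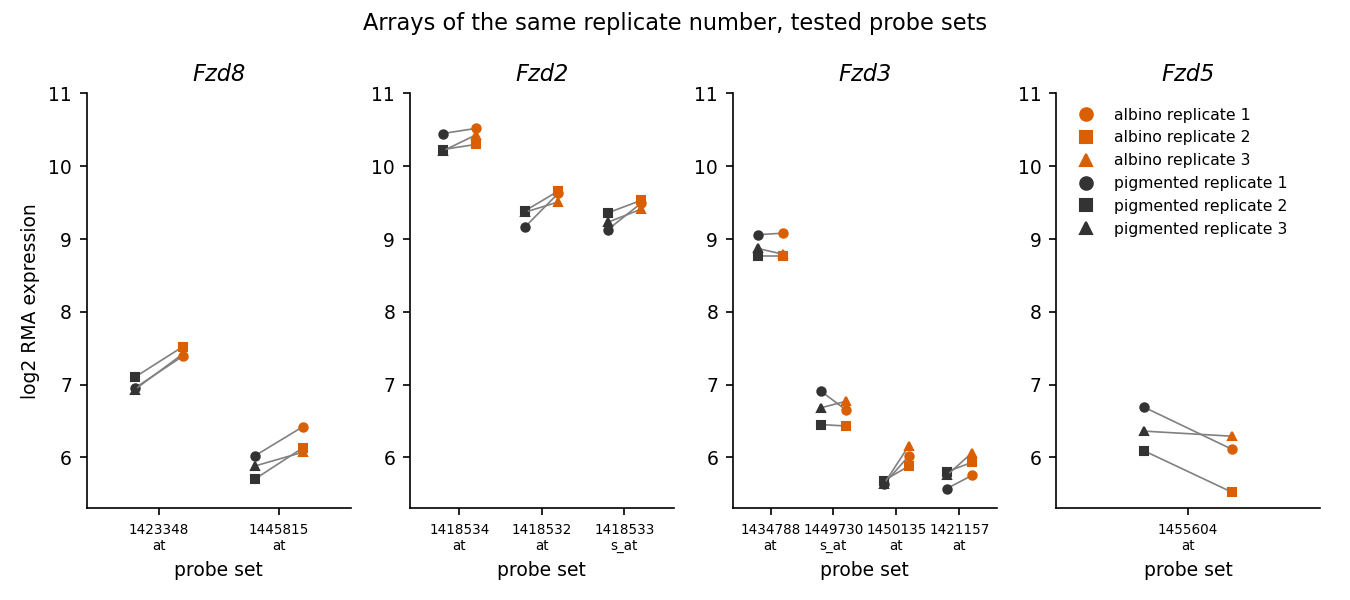
Log2 RMA expression of the tested probe sets of Fzd8, Fzd2, Fzd3 and Fzd5, with grey lines joining the pigmented and albino arrays of the same replicate number. The 3 lines rise in both Fzd8 probe sets (by 0.44, 0.42 and 0.49 in the representative) and in all 3 of Fzd2, and fall in Fzd5 (by 0.58, 0.57 and 0.07).

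Genes that act with the receptors were described in 8 lists of 64 entries, of which 62 are named in the annotation and 50 were tested. None passed the threshold in either direction. At an unadjusted p under 0.05 stood 3 (6%), beside 4.68% of all tested probe sets, and the genotypes did not overlap at 10 (20%), beside 10.8%. Over the 50 genes, albino pools read higher at 22 and lower at 28, and the median difference was -0.02.

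Proteins that set how long Frizzled receptors stay on the cell surface held the 3 genes at an unadjusted p under 0.05. R-spondins bind LGR receptors and hold off the ubiquitin ligases ZNRF3 and RNF43, which remove Frizzled proteins. Rspo2 read 8.29, 7.72 and 7.87 in albino pools against 6.93, 6.33 and 7.00 in pigmented pools, with no overlap and a difference of 1.21 (SE 0.23, limma adjusted p = 0.507). Its other tested probe set, at a mean of 5.09, gave -0.21. Rspo3 differed by 0.51 (SE 0.17).

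Lgr5, named for its size after its values were seen, differed by 0.53 (SE 0.21). Of the 8 tested genes of this list 3 were higher and 5 lower. The median of -0.07 turned to 0.23 with the filter at a mean of 6, 0.011 with array weights and 0.013 without both replicate 1 arrays. The R-spondin receptor gene Lgr4, also named after its values were seen, lay on the lower side (-0.20, SE 0.09) with no overlap of the genotypes. The muscle list stood higher in these pools as well (by 1.57), and its part in these values was not tested.

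Among co-receptors and other Wnt receptors, 4 of 5 tested genes were higher in albino pools, with a median of 0.08. Ror1, a receptor tyrosine kinase gene, differed by 0.16 (SE 0.10) and Ryk by 0.09 (SE 0.08). The other tested Ryk probe sets gave -0.06 and 0.21. Lrp5 had a mean of 4.71 and was not tested. Partners of Fzd4 in its complexes with Norrin and Wnt7 were lower in 3 of 3 tested genes, with a median of -0.06, and Tspan12, the tetraspanin that works with Fzd4, differed by -0.12 (SE 0.11). Adgra2, which encodes the Wnt7 co-receptor Gpr124, differed by -0.06 (SE 0.08). Ndp, the Norrin gene, was not tested, at 3.80 ± 0.35 in albino pools against 3.99 ± 0.25 in pigmented pools (SD, n = 3 each).

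Wnt ligand genes were tested in 12 of 19 cases, 6 higher and 6 lower, with a median of -0.01. The smallest p-values were those of Wnt9a (0.15, SE 0.09) and Wnt5b (0.16, SE 0.11; 0.25 in its other tested probe set). Wnt11, named for its size after its values were seen, differed by 0.50 with an SE of 0.47, and its replicate 1 arrays read highest in both genotypes (7.79 and 7.00). Secreted Frizzled-related proteins, which bind Wnts through a domain like that of the receptors, had 2 higher and 3 lower members and a median of -0.08. Frzb differed by 0.19 (SE 0.12) and Sfrp1 by -0.09 (SE 0.10), with -0.32 to 0.03 in its other tested probe sets.

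Inside the cell, Dishevelled and the beta-catenin destruction complex had 3 of 9 tested members higher and a median of -0.01. Dvl2, a Dishevelled gene, differed by 0.24 (SE 0.13) and Apc by -0.11 (SE 0.09), each with no overlap of the genotypes. The other tested Apc probe sets overlapped and gave -0.08 and 0.05. Planar cell polarity partners had 4 of 7 higher and a median of 0.00, with Celsr1, an atypical cadherin gene, at 0.12 (SE 0.14) and Celsr2 at -0.15 (SE 0.19).

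Smo, which encodes the Hedgehog transducer Smoothened and is the nearest relative of the Frizzled genes outside the family, read 10.25, 10.32 and 10.25 in albino pools against 10.42, 10.43 and 10.41 in pigmented pools. The genotypes did not overlap, the difference was -0.15 (SE 0.08), and the second Smo probe set, without the _s_at suffix of the first, gave -0.03.

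**Figure D4:**
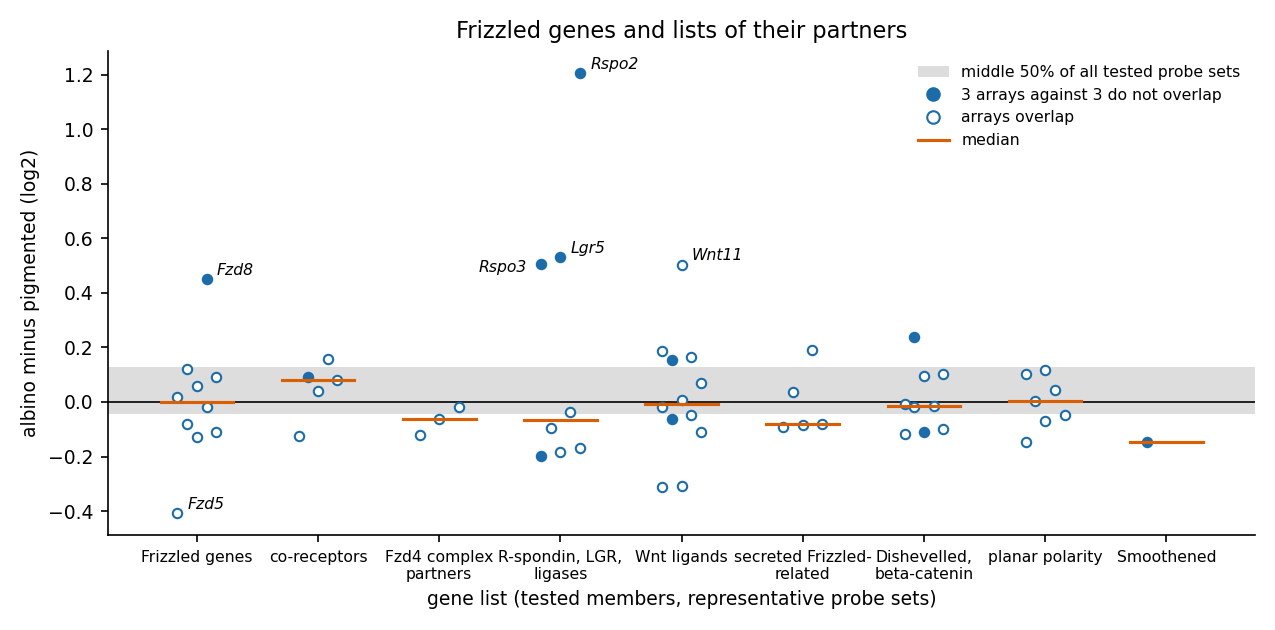
Albino minus pigmented log2 difference of each tested gene, by list, with list medians in orange and the middle 50% of all tested probe sets (-0.04 to 0.13) in grey; filled points mark genes whose 3 albino and 3 pigmented arrays do not overlap. Fzd8 (0.45), Rspo2 (1.21), Lgr5 (0.53), Rspo3 (0.51) and Wnt11 (0.50) lie highest, and Fzd5 (-0.41) lies lowest.

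The genes whose readings ran most like those of the family's extremes were named by Pearson correlation over the 6 arrays, among 12097 other genes. For Fzd1, the member with the highest reading, these were Trim59 (r = 0.997), Yipf6 (r = 0.991) and Yaf2 (r = 0.988), which all read highest in pigmented replicate 1. For Fzd8, the member with the smallest p, they were Dcun1d2 (r = 0.986), Hgsnat (r = 0.986) and Igfbp3 (r = 0.981), with differences of 0.17, 0.15 and 0.25. These correlations only describe 6 arrays, which also differ between the genotypes and between replicates, and they were not tested.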

How the data were processed

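RNA of 6 pools was measured on 3′ expression arrays after biotin labelling of cRNA from 100 ng of total RNA. The deposited values are log2 expression values that the authors made with Affymetrix Expression Console 1.1 and RMA, per the submitters' processing notes. RMA corrects background, quantile-normalizes the arrays and summarises probe sets, so differences are relative to other transcripts. The number of arrays limits the precision. Of 45101 probe sets, 64 controls and those with a mean below 5 were left out, which kept 23591.

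Genotypes were compared as albino minus pigmented in limma 3.58.1 (R 4.3.3; lmFit, eBayes; two-sided). P-values were adjusted over every tested probe set by Benjamini-Hochberg, and the threshold was 0.05. All p-values come from limma. The fit was tested on simulated data. No arrays were copies (highest correlation 0.995).

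The members and lists were chosen with earlier results of these data known. Named were all members, from each list the 2 genes with the smallest p and any past the threshold, Tyr, Otx2, Rpe65 and Myog, and the 3 genes most like Fzd1 and Fzd8. Lgr4, Lgr5, Wnt11, Lrp5, Ndp, Ttr, Cryba1, Six6, Sox2, Atoh7, Rax and Nefl were named outside this rule, after values were seen. Some listed markers are not reported here.

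Deviations from the genotype means correlated at 0.863, 0.687 and 0.448 between arrays numbered 1, 2 and 3, which was read as a pairing of the arrays; the labels do not state one. Across numbers the values were 0.693 (albino 2, pigmented 3) and 0.546 (albino 3, pigmented 2), both above those of these albino arrays with their own number, so the pairing rests mainly on replicate 1.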

Additional observations from a re-analysis of the deposited data

How the results depend on the processing

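The gene differences, list medians and counts of calls were recomputed under 9 changes of scaling, filter or model, leaving out each array or both replicate 1 arrays, 2 other ways of representing a gene (not for counts over all probe sets), and 1 scaling chosen after seeing the data (centring on the median of the tested probe sets). No probe set, Frizzled gene or listed gene passed limma's adjusted threshold under any of them. Fzd8 kept its direction and an unadjusted p under 0.05 in 19 of 19 alternatives, at 0.38 to 0.53 (limma adjusted p 0.0793 to 1). Fzd1, Fzd2, Fzd5, Fzd6, Fzd7 and Fzd10 also kept their direction in every alternative run. Fzd3 turned to 0.0028 with probe sets averaged and to between 0.023 and 0.062 without albino replicate 2, albino replicate 3 or pigmented replicate 1 (-0.12 to 0.062 over arrays left out). Fzd9 turned to -0.15 with the Y-linked covariate, to -0.057 after the added centring, and to -0.070 and -0.088 without albino replicate 1 or pigmented replicate 2 (-0.088 to 0.13 over arrays left out). Fzd4 turned to -0.013 after the added centring. The cause was not tested.

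Frizzled genes at an unadjusted p under 0.05 went from 1 to 2 with the replicate block, the Y-linked covariate (both adding Fzd5) and averaged probe sets (adding Fzd2). The replicate block changed no call after adjustment. Averaged probe sets put Fzd5 and Fzd10, and the filter at 6 put Fzd9, below the filter, so these gave no value there. Probe sets at an unadjusted p under 0.05 went from 1104 to 4243 with the replicate block, 4952 with a block of replicate 1 against the others, 3510 with array weights, 687 with the Y-linked covariate and 3052 without both replicate 1 arrays. Leaving out 1 array gave 567 to 1418, with 610 without albino replicate 2 and 567 without pigmented replicate 2. Of them 68.8% were higher in albino pools, 51.8% after cyclic loess, 54.8% without the filter, 56.6% without albino replicate 1, and 31.5% after the added centring. Of 152 recomputed list medians, 12 moved by more than the spread between arrays and 24 turned in sign: 7 for Wnt ligands, 7 for planar cell polarity, 6 for Dishevelled and the destruction complex, 3 for the R-spondin list and 1 for secreted Frizzled-related proteins. The order of readings, the counts of arrays without overlap and the marker lists were not recomputed.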
